A study of Mus musculus with 60 samples.

Results

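The liver of mice given the lowest dose of benzo(ghi)perylene (BghiP), 6.25 mg/kg-bw/day and named D1, was compared with the liver of vehicle mice, named D0. The members were the 5 liver arrays titled D1 and the 5 titled D0, 10 of the 60 arrays of the series. All animals were male Muta Mouse, about 10 weeks of age, and were gavaged daily for 28 days with BghiP in olive oil (D1) or with olive oil alone (D0). Tissue was taken 72 hours after the last gavage. Muta Mouse carries a lacZ transgene used as a target for mutation assays, and this transgene was shared by both groups. D0 held mice 1 to 5 and D1 mice 6 to 10, and 1 array was hybridized per liver. The other liver arrays, of mice given 12.5 (D2) or 25 (D3) mg/kg-bw/day, entered the same model to estimate the spread. RNA came from random sections of whole tissue, so that fewer cells of a type and less RNA per cell cannot be told apart.

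Many foreign compounds bind the aryl hydrocarbon receptor (AhR), a cytoplasmic transcription factor that moves to the nucleus, pairs with ARNT and binds the core motif GCGTG near genes such as Cyp1a1, Cyp1a2 and Cyp1b1, whose enzymes oxidize such compounds. Those that are oxidized to reactive metabolites can form DNA adducts, and DNA damage activates p53, which induces Cdkn1a and Mdm2. The liver holds most of the body's drug-metabolizing enzymes, and for that reason the comparison asks whether the low dose changed these genes or any other.

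At 6.25 mg/kg-bw/day no transcript passed the test in liver. Of 25893 probes tested, 0 had both an adjusted p no higher than 0.05 and a change of at least 1.5-fold, which together make a called probe (0% called), and 0 passed at any fold change. The lowest adjusted p was 0.51 (limma, Benjamini-Hochberg). At an unadjusted p under 0.05, 1101 probes (4.25%) were counted, 537 higher (2.07%) and 564 lower (2.18%) at D1, against 1295 if p-values were spread evenly. With a minimum change of 1.2-fold as well, 501 probes remained (1.93%), 267 higher (1.03%) and 234 lower (0.904%). In the same tissue, D3 against D0 gave 25 called probes (0.0966%) and 4636 at an unadjusted p under 0.05 (17.9%), and D2 against D0 gave 0 and 1736 (6.70%). These 3 comparisons share the D0 arrays.

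On the scale of these ratios, made without background subtraction, the intervals were narrow for most probes. The median standard error of a D1 minus D0 change was 0.101 on the log2 scale, and for 24356 probes (94.1%) the 95% interval lay within 1.5-fold in either direction. The interval reached a median of 0.212 (log2) to either side of the estimate. It covers the spread between arrays and not the choice of signal. With processed signals in place of median signals, the changes of Pctp and Wt1, given below, fell outside their intervals. That of Onecut1 did not. Estimated changes of at least 1.5-fold were found for 125 probes (0.483%), 64 of them higher and 61 lower.

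**Figure D1:**
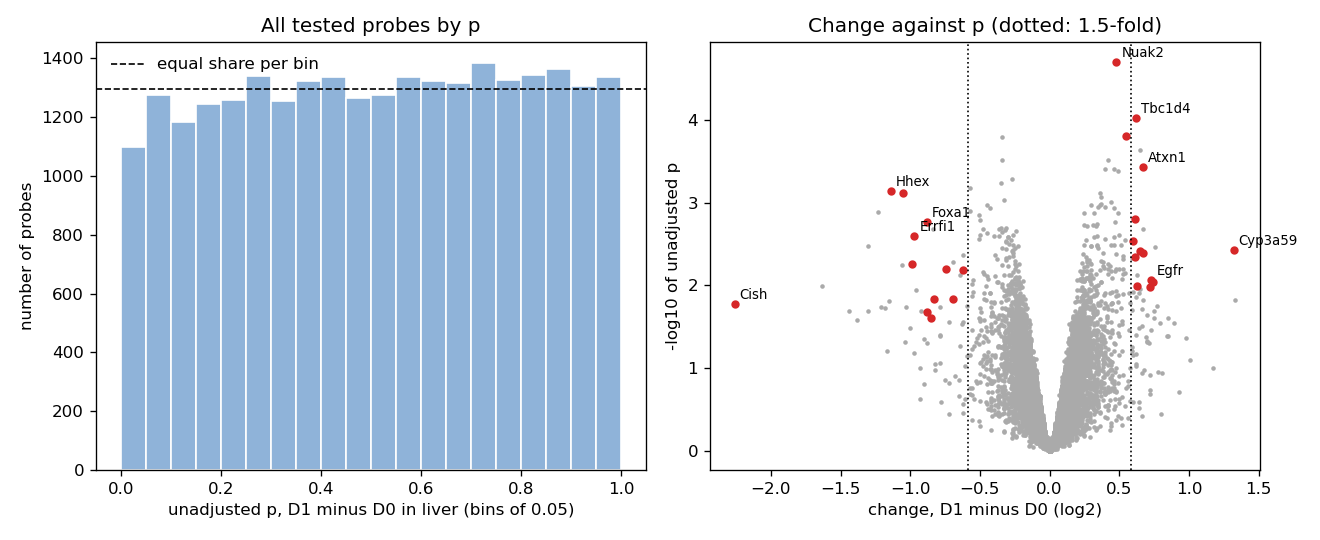
Left, the number of probes in each bin of unadjusted p for D1 minus D0 in liver, with the dashed line at an equal share per bin; right, the change (log2) of each probe against -log10 of its unadjusted p, with dotted lines at 1.5-fold. The bin nearest 0 holds 1101 probes, fewer than the line at 1295, and the probe with the lowest p, for Nuak2, lies inside the 1.5-fold lines.

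The plot of all probes by p shows no excess of low values. Its right panel shows that the probes with large changes, such as Cish and Cyp3a59, were not those with the lowest p.

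The 20 liver arrays lay on 3 slides, numbered 1 to 3 here, with mouse 1 and mice 6 and 7 on slide 1, mice 3, 4, 8 and 9 on slide 2, and mice 2, 5 and 10 on slide 3. Slide 3 was dimmer, with a mean of 39.7% of probes well above background against 44.9% and 45.8%, and 6748 probes (26.1%) differed between slides (adjusted p no higher than 0.05). Slide was a term of the model. D0 arrays always sat in the first column of a slide and D1 arrays in the second, so that this position and the dose cannot be told apart. Each array correlated with the rest of its dose group at r of 0.978 to 0.992, and no 2 arrays held the same values. D0 mouse 2 had the lowest r, 0.978, and also the lowest share of probes well above background, 36.3%. The mean log2 ratio over 12 hepatocyte markers was 7.23 to 8.27 in liver, at most 3.51 in lung and at most 3.96 in forestomach, with the order that the tissue label gives.

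The AhR genes were examined first, because they are a known readout of exposure to compounds that bind this receptor. Cyp1a1, the most inducible of these oxidizing enzymes, was well above background on 0 of the 20 liver arrays, at every dose, and no change is given for it. Ahrr, the repressor that AhR induces to end its own signal, was also well above background on 0 of the 20 arrays by either of its probes. Cyp1b1 reached that level on 3 arrays, 1 of D0 and 0 of D1, and was not tested. Absence of a reading above background is a bound and not a level.

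Cyp1a2, which is made in liver without induction, was well measured. Its log2 ratio of liver RNA to reference RNA was 6.30, 6.00, 6.34, 6.61 and 5.85 in D0 mice 1 to 5 and 6.39, 6.23, 6.42, 6.38 and 5.72 in D1 mice 6 to 10. The groups overlapped throughout, and the 3 mice of slide 3 had the lowest values in both. The unadjusted difference of the group means was 0.01, and with slide in the model the change was -0.10 ± 0.09 (SE, 95% interval -0.29 to 0.09, adjusted p = 0.999). Within slides 1, 2 and 3 the differences were 0, -0.08 and -0.21.

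Tiparp, an AhR-induced ADP-ribosyltransferase that feeds back on the receptor, had values from -2.91 to -2.39 at D0 and from -2.90 to -2.43 at D1. Its change was -0.04 ± 0.11 (95% interval -0.26 to 0.18, adjusted p = 0.999), and a second probe gave -0.19 ± 0.13. Nqo1, a quinone reductase under AhR and Nrf2, was -1.36, -1.44, -1.87, -1.98 and -1.53 in D0 and -1.82, -1.68, -1.81, -1.79 and -1.82 in D1. The 5 D1 mice lay close together inside the range of D0, and the change of -0.12 ± 0.14 did not pass (adjusted p = 0.999). It was -0.02 without D0 mouse 1 or D1 mouse 10.

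Promoter sequence is shown for the best known AhR genes to set these measurements beside the motif the receptor binds. Windows are the 250 bases before the transcription start in RefSeq (build GRCm38.p6), read 5′ to 3′ on the gene's strand, with GCGTG on either strand in capitals.
Cyp1a1 (chr9:57697363-57697612, + strand): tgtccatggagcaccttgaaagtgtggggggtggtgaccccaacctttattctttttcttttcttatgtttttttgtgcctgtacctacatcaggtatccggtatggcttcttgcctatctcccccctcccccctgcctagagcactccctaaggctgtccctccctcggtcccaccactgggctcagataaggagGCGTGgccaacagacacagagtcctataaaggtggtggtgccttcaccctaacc
Cyp1a2 (chr9:57683656-57683905, - strand): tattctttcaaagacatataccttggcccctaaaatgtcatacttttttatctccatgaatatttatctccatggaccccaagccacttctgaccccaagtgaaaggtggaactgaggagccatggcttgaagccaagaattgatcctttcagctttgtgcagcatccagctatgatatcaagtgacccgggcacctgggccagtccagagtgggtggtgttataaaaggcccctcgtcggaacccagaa
Tiparp (chr3:65528197-65528446, + strand): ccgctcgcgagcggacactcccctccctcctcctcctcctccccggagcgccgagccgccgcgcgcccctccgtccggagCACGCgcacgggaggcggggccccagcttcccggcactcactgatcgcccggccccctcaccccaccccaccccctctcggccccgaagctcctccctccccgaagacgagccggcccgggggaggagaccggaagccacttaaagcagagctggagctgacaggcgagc
The Cyp1a1 and Tiparp windows each held 1 match, and the Cyp1a2 window held 0. Of the 10 tested AhR targets, 7 had a window, and 1 of these genes (14.3%) held the motif, against 30.9% of all 27025 genes with a window. Over all 15 AhR targets, tested or not, it was 4 of 11 (36.4%). A match is no more than a match of letters, and a window without one says nothing about the receptor elsewhere. Over all tested probes of genes whose window held the motif, 236 of 6356 (3.71%) were at an unadjusted p under 0.05, against 235 of 6841 (3.44%) of those whose window did not.

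Of the 15 genes of the AhR target list, 10 were tested, 0 were at an unadjusted p under 0.05 (4.25% over all probes), and 3 were higher and 7 lower at D1. The median change was -0.07, against -0.000767 over all probes. With median centring in place of loess, 9 were higher and 1 lower. The median was then 0.03, still below that over all probes, which was 0.0881. Nfe2l2, which encodes Nrf2, was the highest at 0.30 ± 0.14, and Fmo2, a flavin monooxygenase, the lowest at -0.25 ± 0.16. The 8 tested genes of the AhR complex had a median of 0.03 and ranged from -0.16 to 0.14. At the other doses Cyp1a2 stood at -0.10 (D2) and -0.16 (D3) against D0, and it differed between D2 and D1 by 0 and between D3 and D1 by -0.06 (adjusted p = 0.997 and 0.816).

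The p53 genes gave no call either. Cdkn1a, the cell cycle inhibitor p21, was -3.84, -3.30, -3.68, -3.23 and -3.68 in D0 and -3.79, -3.76, -3.83, -3.72 and -3.51 in D1. The D1 mice fell within the range of D0, and the change was -0.14 ± 0.12 (95% interval -0.40 to 0.12, adjusted p = 0.999), or -0.03 without D0 mouse 4 and -0.21 without D0 mouse 1. Mdm2, the ubiquitin ligase that degrades p53, differed by -0.02 ± 0.09 (95% interval -0.21 to 0.16, adjusted p = 0.999).

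Gdf15, a stress-induced cytokine, varied most among the p53 targets. It was -0.02, -1, -0.51, -1.70 and -0.28 in D0 and -0.91, -0.18, 0.10, -1.64 and 0.79 in D1. The ranges overlapped, and D1 mice 8 and 10 were above every D0 mouse. The change of 0.32 ± 0.40 had a 95% interval of -0.52 to 1.17, and without mouse 10 it was -0.03.

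Of 25 tested p53 targets, 1 was at an unadjusted p under 0.05, a share close to the 4.25% over all probes. This was Bbc3, which encodes the cell death protein PUMA. Its values were -0.31, 0.11, 0.43, -0.08 and 0.40 in D0 and 0.51, 0.72, 0.74, 0.62 and 0.40 in D1. All 5 D1 mice were above the D0 mean of 0.11, with overlap between the groups at 0.40 to 0.43. The change was 0.49 ± 0.18 (1.41-fold, unadjusted p = 0.0132, adjusted p = 0.999), and within slides 1, 2 and 3 it was 0.93, 0.51 and 0.15. Without D0 mouse 1, 0 p53 targets were higher at an unadjusted p under 0.05. The list median was 0.02 with 14 genes higher and 11 lower. None of the 32 tested DNA repair genes was at an unadjusted p under 0.05, and their median was 0.01 with a range of -0.19 to 0.19.

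**Figure D2:**
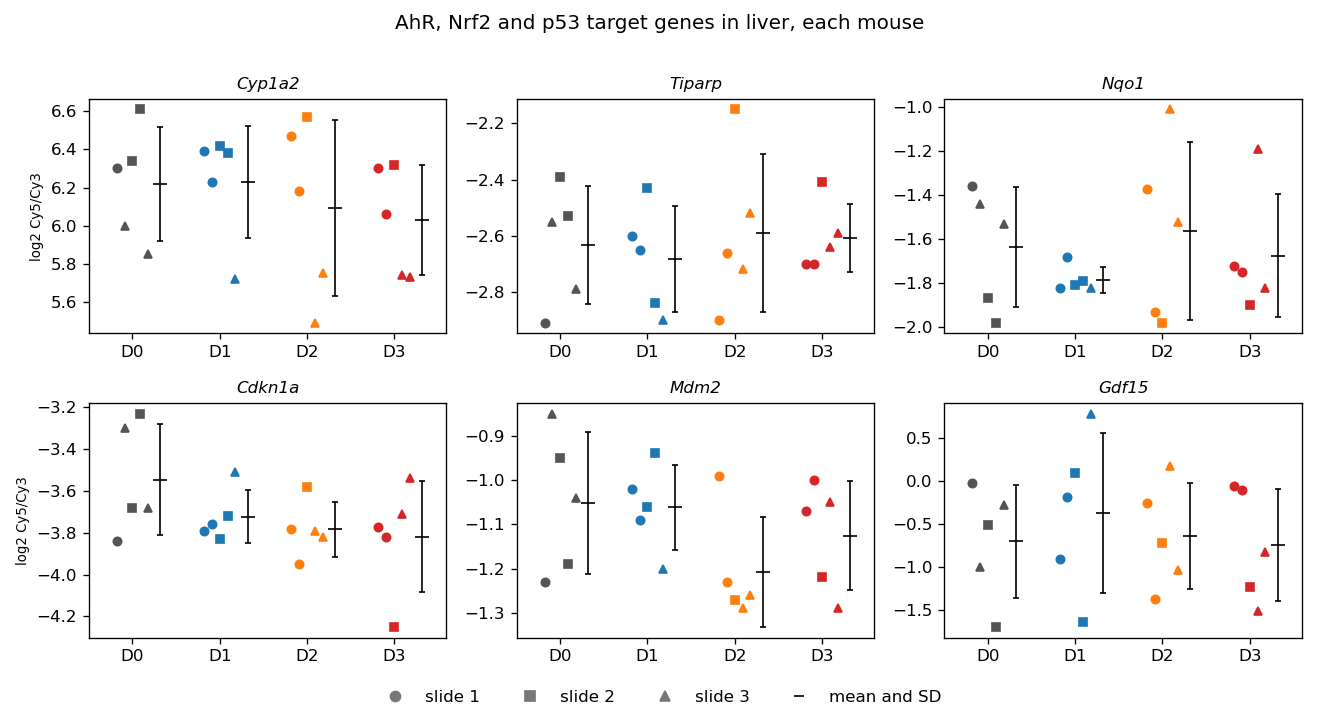
Log2 Cy5/Cy3 of 6 genes in each liver by dose (D0, D1, D2 and D3, 5 mice each); marker shape gives the slide, and the black bar the mean with its SD. The groups overlap for all 6 genes, and slide 3 mice have the lowest Cyp1a2 values in every dose group.

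The plot of these 6 genes by dose also shows that the D2 and D3 mice overlap D0 and D1. For Cyp1a2 the difference was 0.01 between group means and -0.10 with slide in the model.

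Genes that differed by at least 1.5-fold in liver with the smallest p are described next, although none passed the test. They were not picked by the size of the difference. Among probes with a symbol and at least 1.5-fold, the 12 higher and 12 lower with the smallest p had unadjusted p of 9.54e-05 to 0.0249, and adjusted p of 0.982 or above. Each gene stands by the 1 of these probes with its smallest p, and other probes of the gene may have changed less. Nuak2, Zbtb20 and a second Tbc1d4 probe were added after their values were seen.

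Nuak2, an AMPK-related kinase, had the lowest p of all probes. It was 0.31, 0.40, 0.64, 0.78 and 0.27 in D0 and 0.87, 1.16, 0.99, 1.13 and 0.79 in D1. Every D1 mouse was above every D0 mouse, by the narrow gap between 0.78 and 0.79. The change was 0.48 ± 0.08 (1.39-fold, unadjusted p = 1.97e-05, adjusted p = 0.51), and within slides 1, 2 and 3 it was 0.70, 0.35 and 0.45. Such complete separation of 5 from 5 mice occurred for 51 probes with D1 above (0.197%) and 48 with D1 below (0.185%), 0.382% of those tested.

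Atxn1, which encodes the transcriptional co-regulator ataxin-1, also separated. Its values were -0.03, -0.14, 0.03, 0.29 and 0.12 in D0 and 0.44, 0.63, 0.86, 0.68 and 0.93 in D1, with a change of 0.67 ± 0.15 (adjusted p = 0.982), or 1.02 with processed signals. Zbtb20, a zinc finger repressor that silences alpha-fetoprotein in adult liver, was 1.17 to 1.60 in D0 and 1.72 to 2.25 in D1, without overlap (0.55 ± 0.12, adjusted p = 0.982). Tbc1d4 encodes AS160, a GTPase-activating protein of insulin-stimulated glucose uptake, and its probes gave 0.62 ± 0.13 and 0.65 ± 0.14 (adjusted p = 0.982 each). The groups overlapped for the first probe, where D0 mice 3 and 4 (1.32 and 1.46) exceeded D1 mouse 6 (1.12), and did not overlap for the second, at most 1.53 in D0 against at least 1.61 in D1.

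Egfr, the epidermal growth factor receptor, was 3.49, 2.65, 3.52, 4.04 and 3.81 in D0 and 4.11, 4.52, 4.22, 4.38 and 3.99 in D1. All 5 D1 mice were above the D0 mean, D0 mouse 4 exceeded D1 mouse 10, and D0 mouse 2 was far below the rest. The change was 0.73 ± 0.25 (1.66-fold, adjusted p = 0.999). Errfi1, which encodes an inhibitor that binds EGFR and ends its signal, went the other way. It was 3.72, 2.50, 2.69, 3.24 and 2.51 in D0 and 2.34, 1.39, 1.52, 2.28 and 2.21 in D1, without overlap, and the change was -0.97 ± 0.28 (1.96-fold, adjusted p = 0.999). The difference of Errfi1 was -1.85 within slide 1, -1.07 within slide 2 and -0.30 within slide 3.

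Epha2, a receptor tyrosine kinase for ephrin ligands, differed by 0.74 ± 0.25 and Efna1, the gene of its ligand ephrin-A1, by 0.72 ± 0.25 (adjusted p = 0.999 each). Efna1 was 1.89, 1.63, 2.14, 2.26 and 3.00 in D0 and 2.75, 2.84, 3.07, 2.89 and 3.05 in D1, so that D0 mouse 5 alone reached the D1 values. Adrb3, a beta-adrenergic receptor, was 1.44 to 2.26 in D0 and 2.21 to 3.13 in D1 (0.67 ± 0.20).

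Angptl8, a feeding-induced hormone of triglyceride handling, was 5.42, 4.29, 5.56, 5.40 and 4.53 in D0 and 5.58, 5.83, 6.06, 5.62 and 5.54 in D1. Its D0 values on slide 3 were low, and the change of 0.60 ± 0.18 was 1.12 within slide 3 but 0.29 and 0.36 within slides 1 and 2 (adjusted p = 0.999). Cyp3a59, a drug-metabolizing cytochrome P450 of the Cyp3a family, had the largest positive difference of the named genes, 1.32 ± 0.40 (2.50-fold, adjusted p = 0.999). It was 1.46, 1.58, 1.65, 1.66 and 0.70 in D0 and 1.27, 3.72, 2.96, 1.84 and 3.35 in D1, so that the D1 mice ranged over more than 2 log2 units and mouse 6 lay below 4 of the D0 mice. The other Cyp3a genes tested on the list of CAR and PXR targets ranged from -0.31 to 0.12, and near-identical Cyp3a copies may share this probe's signal. Spink1, a trypsin inhibitor, differed by 0.63 ± 0.22, Ahcyl2 by 0.65 ± 0.20, Arhgap26 by 0.61 ± 0.19 and Col5a3 by 0.61 ± 0.16. Without D1 mouse 8 Col5a3 was at 0.39, and without slide 3 Cyp3a59 was at 0.87, Angptl8 at 0.30, Arhgap26 at 0.40 and Spink1 at 0.41.

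Of the genes with lower means at D1, none of which passed the test, Hhex, a homeobox factor needed to form the liver, had values of 5.22, 4.93, 4.89, 4.96 and 4.58 in D0 and 3.38, 3.34, 3.40, 4.41 and 3.99 in D1. No D1 mouse reached the lowest D0 mouse, and the change was -1.14 ± 0.28 (2.21-fold, 95% interval -1.73 to -0.55, unadjusted p = 0.000718, adjusted p = 0.999). Foxa1, a pioneer factor that opens liver enhancers, was 2.88, 3.80, 3.73, 4.04 and 2.75 in D0 and 2.35, 2.17, 2.38, 3.28 and 2.35 in D1.

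D1 mouse 9 overlapped D0 for Foxa1, and the change was -0.88 ± 0.24 (adjusted p = 0.999). Foxa2, its close relative, differed by -0.62 ± 0.20 (-1.26 with processed signals) with overlap, from 3.32 to 4.87 in D0 and from 2.70 to 4.16 in D1. Onecut1, which encodes HNF6 and is shared by hepatocytes and bile ducts, was 4.33, 3.24, 4.16, 2.09 and 0.64 in D0 and 2.28, 1.94, 2.17, 1.54 and 0.67 in D1. D0 mouse 5 had the lowest value of all, and the change was -1.38 ± 0.57 (adjusted p = 0.999), or -0.61 with processed signals.

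Cish, a feedback inhibitor of growth hormone and cytokine receptors that STAT5 induces, had the most negative estimate of the named genes. It was 2.55, 3.79, 3.77, 2.31 and -0.66 in D0 and -0.07, -0.67, -0.10, 1.91 and -1.04 in D1. Both groups spread widely, with an SD of 1.82 at D0 and 1.14 at D1, and D0 mouse 5 lay among the D1 mice. The change of -2.26 ± 0.86 (4.81-fold) had a 95% interval of -4.07 to -0.46 and an adjusted p of 0.999. Mouse 5 had the lowest D0 value for Foxa1, Onecut1, Cish and Hhex alike.

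Cyp2b10, the enzyme gene that responds most to the nuclear receptor CAR, was 5.46, 4.29, 2.94, 4.91 and 5.18 in D0 and 3.80, 4.61, 3.62, 2.71 and 3.98 in D1, with a change of -0.99 ± 0.32 (adjusted p = 0.999). Overlap was wide, since D0 mouse 3 was lower than 4 of the D1 mice. The change was -1.38 ± 0.32 at D2 and -0.33 ± 0.32 at D3 against the same controls. Tm7sf3, a membrane protein gene, differed by -1.05 ± 0.26, with D0 mouse 2 at 1.10 inside the D1 range of 0.89 to 1.56. Plk3, a stress-response kinase, differed by -0.83 ± 0.31, B4galt3, a galactosyltransferase, by -0.74 ± 0.24, Pctp, a phosphatidylcholine transfer protein, by -0.88 ± 0.35, Cfap126 by -0.69 ± 0.26 and Chac1, a glutathione-degrading enzyme of the unfolded protein response, by -0.85 ± 0.35. Of these, Pctp was at -0.40 without D0 mouse 3 and at -2.30 with processed signals, Chac1 at -0.47 without D0 mouse 1 and Cfap126 at -0.44 without D1 mouse 8.

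**Figure D3:**
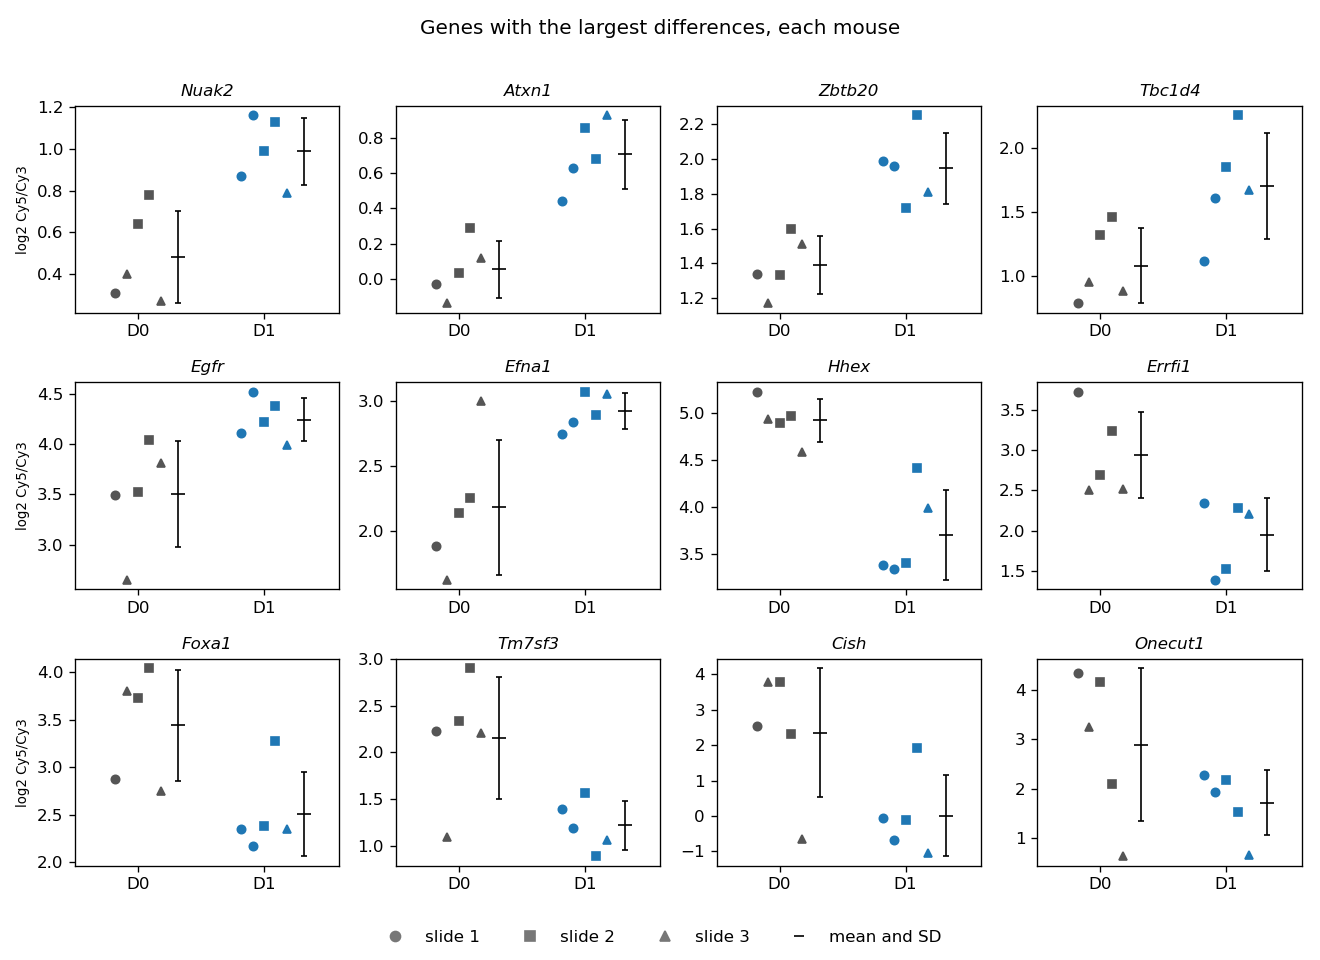
Log2 Cy5/Cy3 of 12 genes in each D0 and D1 liver (5 mice each); marker shape gives the slide, and the black bar the mean with its SD; axes differ between panels. Nuak2, Atxn1, Zbtb20, Hhex and Errfi1 show no overlap between groups, whereas 1 or more D0 mice lie among the D1 mice for Tbc1d4, Egfr, Efna1, Foxa1, Tm7sf3, Cish and Onecut1.

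The plot of these 12 genes shows a single D0 mouse at the D1 values for Efna1 and Cish (mouse 5), for Egfr (mouse 4) and for Tm7sf3 (mouse 2).

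Whole gene groups were described by counts and medians. The 28 pathway lists held 600 distinct genes, of which 545 were tested and 22 (4.04%) were at an unadjusted p under 0.05, 10 higher and 12 lower, near the 4.25% over all probes. The median change lay within 0.1 of 0 for 25 of the 28 lists. When 1 mouse was left out, the medians of the AhR complex, Nrf2, p53, DNA repair, cell cycle, PPAR-alpha, cholesterol, fatty acid, glucose, bile acid, clock activator, acute phase, heat shock, unfolded protein response, pericentral, periportal, complement, conjugation and Wnt lists took either sign, and no direction is read from them.

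With all mice included, interferon-stimulated genes, which encode antiviral proteins, had the lowest median, -0.19, against -0.000767 over all probes. With 1 mouse left out the glucocorticoid list had medians of -0.21 to -0.07, which overlap those of the interferon list given below. Of 26 tested, 25 were lower and 1 higher at D1, 0 were called, and 5 were at an unadjusted p under 0.05, all 5 lower (2.18% of all probes were). These were Rtp4 (-0.51 ± 0.14), Irf7 (-0.47 ± 0.17), Oas1a (-0.51 ± 0.21), Usp18 (-0.50 ± 0.21) and Oasl2 (-0.33 ± 0.15), each with an adjusted p of 0.999 or above in the fit across all probes.

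Rtp4, a receptor transporter protein induced by interferon, was 0.27, 0.66, 0.66, 0.34 and 0.38 in D0 and -0.12, -0.48, 0.04, -0.40 and 0.43 in D1. Irf7, the master factor of the interferon response, was 0.28, 0.60, 0.18, 0.43 and 0.02 in D0 and -0.29, -0.08, 0.04, -0.79 and 0.24 in D1. Mouse 10 was within the D0 range for both genes, mouse 8 for Irf7 as well, and the other D1 mice were below every D0 mouse. Igtp, an interferon-inducible GTPase, was the exception at 0.30 ± 0.22.

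The mean over the list, taken relative to the D0 mean, was -0.12, 0.21, 0.08, -0.02 and -0.15 in D0 mice 1 to 5 and -0.36, -0.36, -0.14, -0.30 and 0.03 in D1 mice 6 to 10. D1 averaged -0.22 ± 0.17 (SD, n = 5) and D0 0 ± 0.15, with overlap. Within slides 1, 2 and 3 the list median was -0.30, -0.21 and -0.02, so that on slide 3, with 2 D0 mice and 1 D1 mouse, 14 of 26 genes were lower. Leaving out 1 mouse at a time gave medians of -0.27 to -0.14, while the count at an unadjusted p under 0.05 was 2 without D1 mouse 9, 3 without D0 mouse 2, D0 mouse 3 or D1 mouse 7, and at most 6. It was 2 with the 10 D0 and D1 arrays alone. With median centring in place of loess the median was -0.08, with 19 of 26 genes lower, and 1 gene lower and 1 higher were at an unadjusted p under 0.05. Irf7 was at -0.29 without D1 mouse 9. Genes of a list share their regulation, and the count is not one of independent events. Cell type lists that hold blood and Kupffer cells are given below, and their part in the result was not tested.

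The promoter windows of the interferon genes were searched for an element bound by factors of the interferon response. The element written as GAAA, 2 bases of any kind and GAAA again, on either strand, is bound by the factor ISGF3 and by IRF proteins. It was held by the 250-base window of 11 of the 20 tested list genes that had a window (55.0%), against 3.46% of all genes. The list is made of genes that interferon induces, so this share describes the list and says nothing about D1. The window of Oas1a is shown because Oas1a is a lower member that holds the element, with 2 overlapping matches in capitals.
Oas1a (chr5:120907526-120907775, - strand): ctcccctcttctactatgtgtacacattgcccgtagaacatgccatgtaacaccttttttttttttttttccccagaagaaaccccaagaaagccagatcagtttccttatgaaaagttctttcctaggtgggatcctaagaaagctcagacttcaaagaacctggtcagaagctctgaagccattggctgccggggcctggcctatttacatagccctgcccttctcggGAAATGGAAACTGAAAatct
Among all tested probes of genes that held the element, 19 of 398 (4.77%) were at an unadjusted p under 0.05, against 452 of 12799 (3.53%) of the others. These holders include list members such as Oas1a, and their median change was 0. The windows of Irf7 and Oasl2 held 0 matches.

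**Figure D4:**
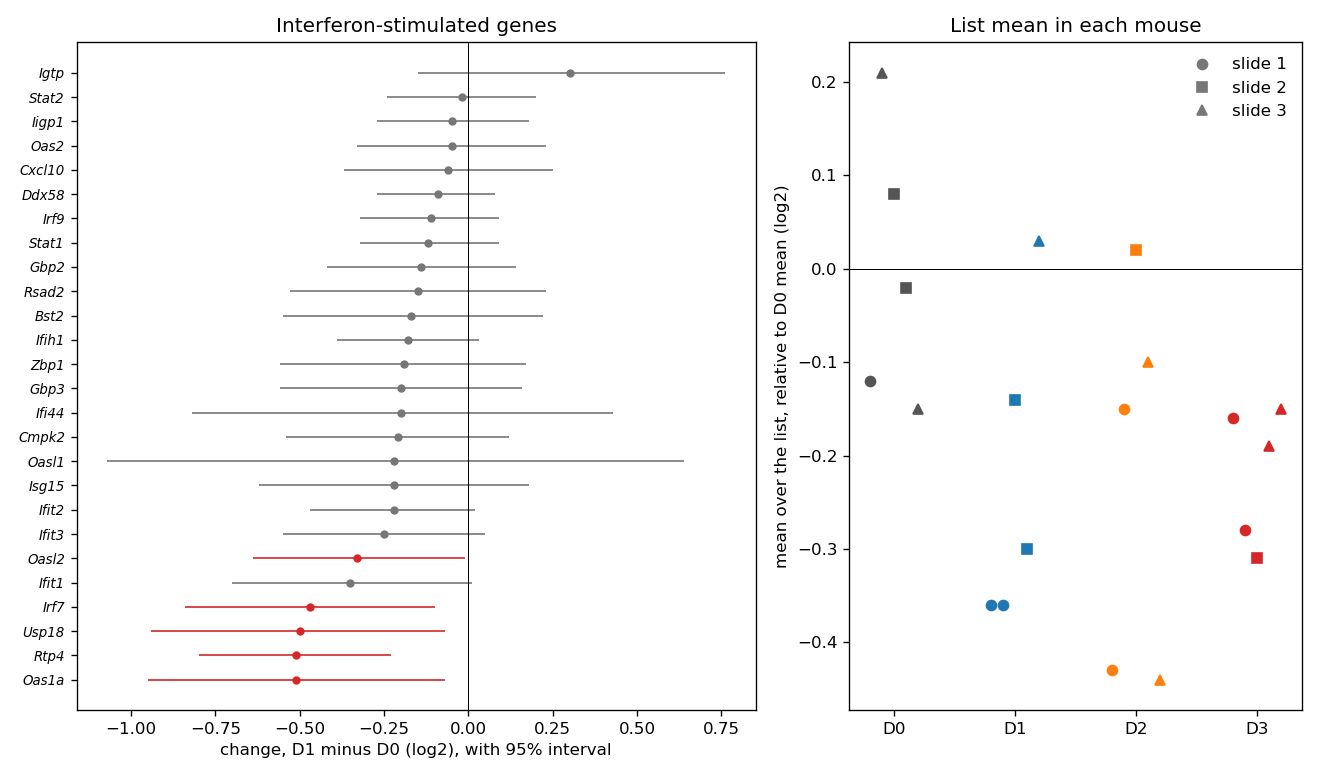
Left, the change at D1 minus D0 (log2, with 95% interval) of the 26 tested interferon-stimulated genes, red where the unadjusted p was under 0.05; right, the mean over the list in each liver relative to the D0 mean, by dose, with marker shape for the slide. Of the 26 points 25 lie below 0, and the D1 mice span -0.36 to 0.03 against -0.15 to 0.21 in D0.

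The right panel of the interferon plot shows that the D3 mice lay within the range of the D1 mice and that 2 of the D2 mice lay below it. For Rtp4 the change against D0 was -0.48 ± 0.14 at D2 and -0.38 ± 0.14 at D3, and for Irf7 -0.46 ± 0.17 and -0.28 ± 0.17. Both genes were picked for their values at D1 against D0, and all these changes share the D0 arrays. Against D1, Rtp4 differed by 0.03 (adjusted p = 0.976) at D2 and 0.13 (adjusted p = 0.715) at D3.

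The clock repressors and their D-box outputs had a median of 0.16, the highest of the lists, with 11 of 14 tested genes higher. Leaving out 1 mouse at a time gave 0.07 (without D0 mouse 4) to 0.25 (without D0 mouse 3), with 0.10 without D0 mouse 5, and without D0 mouse 4 the list of MHC class II and antigen presentation was higher, at 0.12. Bhlhe40, a repressor of clock activators, was the single member at an unadjusted p under 0.05, with -0.31, -0.64, -0.06, -0.54 and -0.77 in D0 and 0.54, 0.28, -0.34, 0.03 and -0.06 in D1 (0.52 ± 0.22, adjusted p = 0.999). Dbp and Nr1d1, which cycle strongly over the day, differed by 0.64 ± 0.61 and 0.62 ± 0.32, and Per1 by -0.41 ± 0.45. The list's mean ranged from -0.47 to 0.21 over D0 mice and from -0.10 to 0.62 over D1 mice. The hour of collection of each mouse is not given in the sources used here.

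Glucocorticoid-responsive and metallothionein genes had a median of -0.15 with 10 of 14 lower (8 of 14 with median centring). Without D0 mouse 4 the median was -0.07, with 8 of 14 lower. Mt1, a metal-binding protein, differed by -0.39 ± 0.23 and Zbtb16, a glucocorticoid-induced factor, by -0.39 ± 0.35. The members at an unadjusted p under 0.05 went opposite ways, Errfi1 as above and Dusp1, a phosphatase of MAP kinases, at 0.67 ± 0.25. For Dusp1 the difference was 1.55 within slide 3 and 0.36 and 0.42 within the others, and without D1 mouse 10 the change of Dusp1 was 0.40.

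Xenobiotic and lipid lists were near 0. Of 23 tested targets of CAR and PXR, the nuclear receptors of drug response, 19 were lower, with a median of -0.08 (10 lower and a median of 0.04 with median centring, and -0.15 without D0 mouse 2), and Cyp2b10 was the single one at an unadjusted p under 0.05. The Nrf2 targets had a median of -0.02, with Txnrd1, thioredoxin reductase, at 0.16 ± 0.07 (unadjusted p = 0.038). Without the slide term or with processed signals, 0 Nrf2 targets were higher at an unadjusted p under 0.05. The same held without D0 mouse 1, 2, 3 or 5 or D1 mouse 7, 9 or 10. Of 30 targets of PPAR-alpha, the receptor of fatty acid oxidation, 3 were at an unadjusted p under 0.05 (4.25% over all probes), a count that was 0 without the slide term or without D0 mouse 5 and 1 without D0 mouse 4 or D1 mouse 7. These were Cyp4a12a (0.26 ± 0.12), Cyp4a31 (-0.50 ± 0.21) and Cyp4a10 (-0.46 ± 0.21), fatty acid hydroxylases that went opposite ways and whose sequences are alike. Without D1 mouse 8 Cyp4a31 was at -0.28 and Cyp4a10 at -0.21, and without the slide term Cyp4a31 was at -0.30. None of 24 genes of cholesterol synthesis and uptake, 21 of fatty acid and triglyceride synthesis, 17 of glucose metabolism and 19 of bile acid synthesis and transport was at an unadjusted p under 0.05, with medians of -0.02, -0.01, 0 and 0.02. With 1 mouse left out these ranged from -0.06 to 0.08, from -0.12 to 0.06, from -0.07 to 0.10 and from -0.10 to 0.17, each lowest without D0 mouse 2.

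Wnt signalling, which sets the pericentral zone of the liver lobule, had 4 of 28 tested members at an unadjusted p under 0.05 (4.25% over all probes), 3 higher and 1 lower (2.07% and 2.18% over all probes). Sp5, a direct Wnt target, was 2.72, 1.54, 2.66, 3.16 and 2.64 in D0 and 3.17, 3.30, 3.43, 3.88 and 2.64 in D1 (0.65 ± 0.23), Fzd5, a Wnt receptor, differed by 0.45 ± 0.15, Rnf43, which removes Wnt receptors, by 0.43 ± 0.20 and Dkk3, a Dickkopf family member, by -0.24 ± 0.10. Each overlapped between groups, Dkk3 least, from -1.06 to -0.74 in D0 and from -1.38 to -1.02 in D1, and each had an adjusted p of 0.999. The list median was 0.02, and without D1 mouse 6 the counts were 5 higher and 2 lower. Fzd5 was at 0.77 with processed signals and Dkk3 at -0.11 with median centring. Tbx3, a Wnt-responsive factor of pericentral hepatocytes, differed by 0.62 ± 0.28, while the 19 pericentral and 21 periportal genes had medians of 0.04 and 0.01.

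Among immune and stress lists, Ccl24, an eosinophil-attracting chemokine, differed by 0.75 ± 0.30 and Cebpd, an acute phase factor, by -0.47 ± 0.15 (adjusted p = 0.999 each). Cebpd was -2.43, -3.02, -3.25, -2.88 and -3.18 in D0 and -3.45, -3.47, -3.17, -3.70 and -3.37 in D1, and of the D1 mice, mouse 8 alone lay within the D0 range. Without D0 mouse 1 the change of Cebpd was -0.27, and within slides 1, 2 and 3 it was -1.03, -0.37 and -0.27. Medians were -0.02 for 27 acute phase genes, -0.05 for 18 chemokines, 0.09 for 13 genes of MHC class II and antigen presentation, -0.01 for 15 heat shock genes and 0.05 for 22 genes of the unfolded protein response. With 1 mouse left out the heat shock median ranged from -0.13 (without D0 mouse 1) to 0.13 (without D0 mouse 2), and that of the unfolded protein response from -0.05 (without D0 mouse 5) to 0.17 (without D1 mouse 8). The 22 cell cycle genes had a median of -0.04, the 19 sex-biased genes -0.04, the 34 complement and coagulation genes -0.03, the 33 conjugation enzymes 0.03, the 4 clock activators 0 and the 30 genes of oxidative phosphorylation -0.04.

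**Figure D5:**
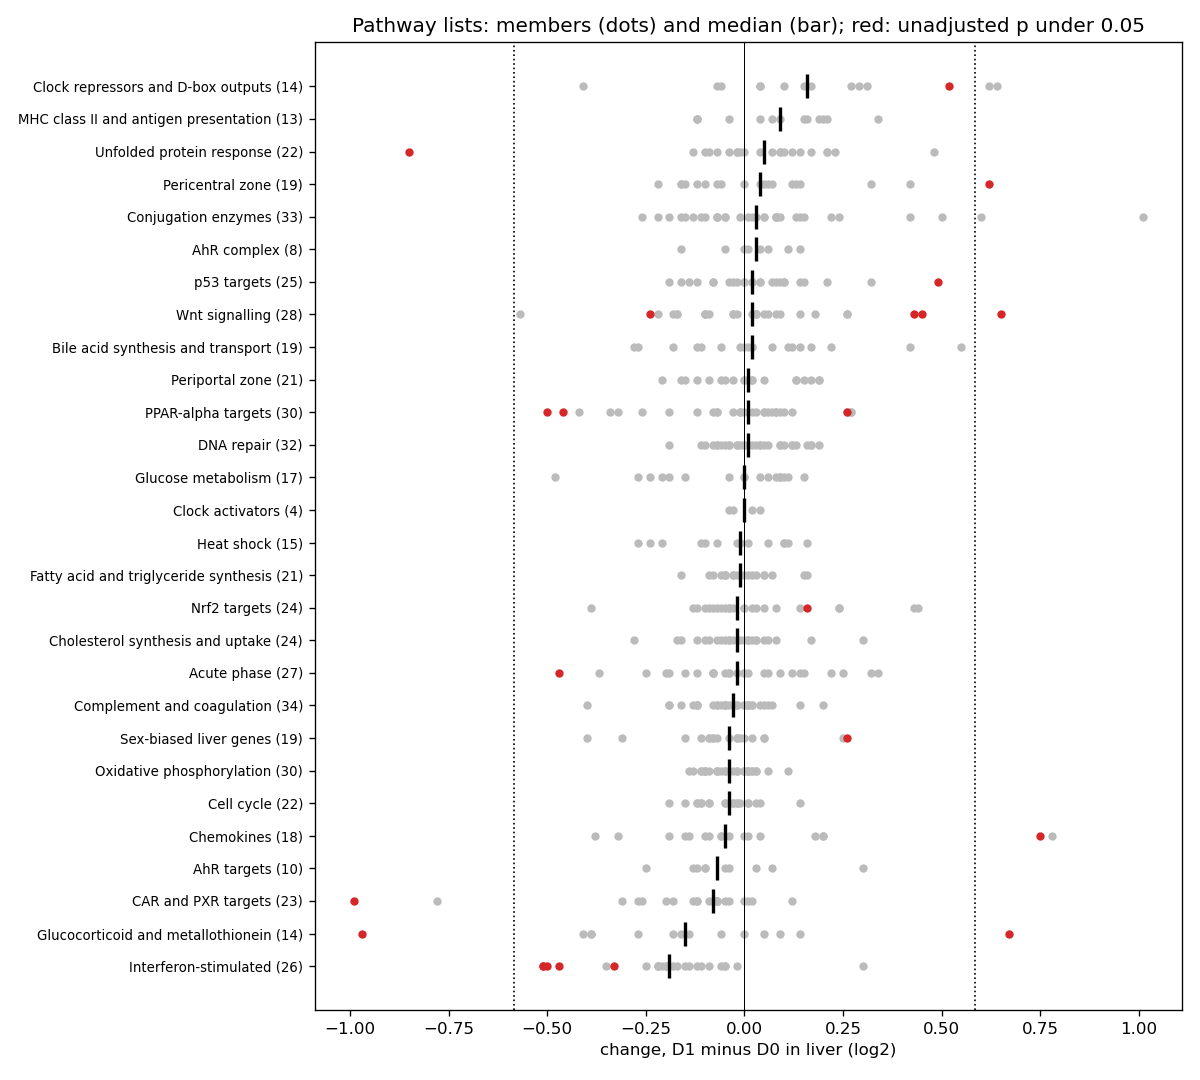
Change at D1 minus D0 in liver (log2) of each tested member (dots) of the 28 pathway lists, with the number tested in brackets and the median as a black bar; red dots are at an unadjusted p under 0.05 and dotted lines mark 1.5-fold. Medians run from -0.19 for the interferon-stimulated genes to 0.16 for the clock repressors and D-box outputs, and 22 distinct genes are red.

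The plot of the lists shows that most members lie well inside the 1.5-fold lines, with Cyp2b10 and Errfi1 at the far left of their lists.

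Markers of the cell types that a piece of liver can hold were set beside these results. Hepatocyte markers ranged over D0 mice from -0.36 to 0.36 and over D1 mice from -0.32 to 0.27, as mean deviation from the D0 mean, with 0 of 12 at an unadjusted p under 0.05. The 10 tested markers of Kupffer cells and macrophages spanned -0.31 to 0.34 in D0 and -0.51 to 0.54 in D1, and the 12 of liver endothelium -0.40 to 0.42 and -0.13 to 0.19. Lyve1, of lymphatic and sinusoidal endothelium, was the 1 endothelial marker of 12 at an unadjusted p under 0.05 (4.25% over all probes), with a change of -0.55 ± 0.19, or -0.33 without D0 mouse 3.

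The 12 stellate cell and fibroblast markers lay at -0.29 to 0.20 in D0 and -0.14 to 0.03 in D1. Bile duct markers, 6 of 10 tested, had list means of -0.34 to 0.24 and -0.24 to -0.06, but 4 of the 6 were higher at D1 and the median change was 0.07. Of these 6, 2 were at an unadjusted p under 0.05 (4.25% over all probes), Sox9 at 0.28 ± 0.12 (unadjusted p = 0.033, with a change of 0.59 by processed signals) and Onecut1 at -1.38 ± 0.57 (unadjusted p = 0.0264). Epcam and Cftr were not well above background on enough arrays to be tested. B cell markers (3 of 8 tested) spanned -0.11 to 0.13 in D0 and -0.21 to 0.31 in D1, T cell and NK cell markers (6 of 10) -0.23 to 0.11 and -0.07 to 0.12, and neutrophil markers (4 of 9) -0.16 to 0.22 and -0.11 to 0.19. None of the tested stellate cell, B cell, T cell and NK cell or neutrophil markers was at an unadjusted p under 0.05. Red cell markers spanned -0.39 to 0.32 and -0.34 to 0.30.

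Of mesothelial markers, 4 of 8 were tested, and 1 of these 4 was at an unadjusted p under 0.05 (4.25% over all probes). This was Wt1, a transcription factor of the liver's outer lining, which separated the groups, as 0.382% of all probes did. It was -2.72, -2.43, -2.53, -2.68 and -2.45 in D0 and -3.08, -3.10, -3.01, -3.04 and -2.75 in D1, with a change of -0.35 ± 0.10 (1.27-fold, adjusted p = 0.999), or -0.84 with processed signals and -0.20 with median centring. The list ranged from -0.17 to 0.18 in D0 and from -0.36 to -0.03 in D1. Fat cell markers spanned -0.26 to 0.23 in D0 and -0.09 to 0.13 in D1, pancreatic acinar markers -0.33 to 0.24 and -0.06 to 0.12, and skeletal muscle markers -0.15 to 0.12 and -0.32 to 0.02. The fat cell markers Adipoq and Plin1, the pancreatic markers Cpa1 and Prss2 and the muscle markers Acta1 and Ckm were not above background in enough arrays to be tested. The part of cell makeup in the other results was not tested.

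Direct contrasts showed how D1 stood against the higher doses. D2 and D1 differed at 0 called probes and 1688 at an unadjusted p under 0.05 (6.52%), with a lowest adjusted p of 0.135. D3 and D1 differed at 1 called probe (0.00386%) and 3529 at an unadjusted p under 0.05 (13.6%). The called probe, A_55_P2108903, carries no symbol in the table used, and D3 minus D1 was -0.88 ± 0.11 on the log2 scale (adjusted p = 0.00322). Its mean log2 ratio was 1.83 ± 0.33 (SD, n = 5) at D0, 2.38 ± 0.35 at D1, 1.60 ± 0.36 at D2 and 1.35 ± 0.46 at D3, so that D1 was the highest of the 4 groups, and D1 against D0 gave 0.46 ± 0.11 (adjusted p = 0.982). Without the slide term the contrast of D3 and D1 had 0 called probes. For Hhex the changes against D0 were -0.38 ± 0.28 at D2 and -0.19 ± 0.28 at D3, and D3 differed from D1 by 0.95 (adjusted p = 0.184). For Cish D3 differed from D1 by 2.54 (adjusted p = 0.219).

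The same mice gave lung and forestomach. At D1 against D0, lung had 0 called probes and 2921 at an unadjusted p under 0.05 (9.42%), and forestomach 0 and 4540 (18.1%). The liver change differed from the lung change at 0 called probes and 741 at an unadjusted p under 0.05 of 33255 (2.23%), and from the forestomach change at 0 called and 4050 (12.2%), with a lowest adjusted p of 0.106. Nuak2 differed by 0.06 ± 0.08 in lung and by -0.25 in forestomach, and its liver change exceeded these by 0.42 and 0.73 (adjusted p = 1 and 0.119). Hhex differed by 0.20 in lung and -0.01 in forestomach, and Foxa1 by -0.06 and 1.60, with adjusted p of 0.116 for the difference between liver and forestomach for Foxa1. Cyp1a2 was not tested in lung or forestomach by itself, where it was not well above background in enough arrays.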

How the data were processed

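RNA of 20 livers (5 per dose group) was measured on dual-colour oligonucleotide arrays, with tissue RNA in Cy5 and universal mouse reference RNA in Cy3 and no dye swaps. The deposited scanner files hold spot intensity values, which the headers credit to Feature Extraction, version 10.7.3.1, on an array designed on build mm9. The deposited series matrix holds log2 ratios that the authors had made from median signals by LOWESS, with no background subtracted, with scale and direction set by comparison with the scanner values (r of 0.996 to 0.997, slopes of 0.990 to 0.994) and medians per liver array of -0.029 to -0.0143. The authors tested with MAANOVA, which was not available, and limma was used instead.

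Here log2 Cy5/Cy3 of median intensities was normalized within arrays by loess (limma 3.58.1, R 4.3.3, data.table, version 1.17.8). The 3671 control spots were left out, spots with an outlier flag were set to missing (0.46% of values), and repeated spots were averaged to give 55681 probes. No value was saturated. The 25893 probes tested had a Cy5 signal well above background on 5 or more liver arrays of the 20. A model of dose and slide was fitted to all 20 livers (lmFit, eBayes), and D1 was contrasted with D0, two-sided, with Benjamini-Hochberg adjustment over all probes. Called means an adjusted p no higher than 0.05 with a change of 1.5-fold or more. Pairs of contrasts with lung and forestomach used all 60 arrays. Fits were tested on simulated data. The number of arrays limits precision, and since 1 array was made per mouse, p-values measure the spread between mice and arrays together.

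Symbols were found for 26413 probes (47.4%) through RefSeq accessions in a table of GRCm38.p6, used for names and promoter windows. For a gene in a list the brightest probe was used. Named genes were 9 AhR, Nrf2 and p53 genes, any called probe, the 12 higher and 12 lower with the smallest p at 1.5-fold or more, up to 3 members per list and direction at an unadjusted p under 0.05, and the highest and lowest member of each of 13 cell type lists. The comparison, the naming rule and the lists were chosen with earlier results of these data known. Alternatives changed the slide term, background correction, normalization, filter, variance model and mice included.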

Additional observations from a re-analysis of the deposited data

Results flagged for a closer look

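In groups of 5 livers, 1 value was looked for that stood apart from the other 4 by more than 0.71 of the whole range. Of 234 groups of values searched, 20 (8.55%) held one, 7 in D0 and 13 in D1, where chance gives about 1 in 20. The values of the others are given with each.

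Among D0 mice, mouse 1 stood apart for Camp, a neutrophil gene, at -0.15 against 0.17 to 0.22, for Cfd, a fat cell gene, at 0.71 against -0.06 to 0.07, and for the mean of the glucocorticoid and metallothionein list at 0.14 against -0.07 to -0.01. Mouse 2 stood apart for the T cell gene Cd3e at -0.27 against -0.75 to -0.61, for the B cell gene Ms4a1 at -2.68 against -3.16 to -3.07, and for the mean of the glucose metabolism list at -0.62 against 0.06 to 0.26. Mouse 5 stood apart for Cyp3a59 at 0.70 against 1.46 to 1.66.

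Among D1 mice, mouse 10, on the dim slide 3, stood apart for Cyp1a2 at 5.72 against 6.23 to 6.42, for the stellate cell gene Lrat at 1.23 against 1.58 to 1.70, for Wt1 at -2.75 against -3.10 to -3.01, and for the means of cholesterol synthesis and uptake at -0.32 against 0.05 to 0.17 and of oxidative phosphorylation at 0.04 against -0.05 to -0.03. Mouse 9 stood apart for Foxa1 at 3.28 against 2.17 to 2.38, for the mesothelial gene Gpm6a at 0.90 against -0.07 to 0.09, and for the means of the AhR complex at 0.36 against -0.12 to -0.04 and of Wnt signalling at 0.25 against -0.05 to -0.01. Mouse 8 stood apart for Cfap126 at 0.11 against 1.05 to 1.29, for Col5a3 at 0.90 against -0.29 to 0.02, and for the mean of the Nrf2 targets at 0.28 against -0.07 to 0. Mouse 7 stood apart for Nqo1 at -1.68 against -1.82 to -1.79.

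No named gene's liver change differed from that in lung or forestomach at an adjusted p of 0.05. The lowest values were 1 for lung and 0.106 for forestomach.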

How the results depend on the processing

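In each alternative tried for D1 against D0, 0 probes were called. Probes at an unadjusted p under 0.05 numbered 899 to 1440 when 1 mouse was left out (428 to 747 higher, 438 to 708 lower), 784 without the slide term (364 lower), 2509 with no filter, which tests 55681 probes (1232 higher, 1277 lower), and 1136 without slide 3, an alternative chosen after seeing the data. With median centring in place of loess there were 1406 higher and 127 lower, 91.7% higher against 48.8%, and the median of all probes moved to 0.0881. Quantile normalization of average signals leaves the ratios as they are by construction. Genes of the pathway lists at an unadjusted p under 0.05 numbered 18 to 34 when 1 mouse was left out (34 without D0 mouse 2), 39 with median centring and 35 without slide 3. Nuak2 reached its lowest adjusted p, 0.138, without D0 mouse 4. The causes of these shifts were not tested.

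D2 against D1 had 3180 probes and D3 against D1 5350 at an unadjusted p under 0.05 with no filter, and D3 against D1 had 0 called without the slide term. Without the slide term the liver change differed from that in lung at 382 probes and from that in forestomach at 2478. Mouse numbers stand for the same animal in each tissue, so the replicate block of mouse applies to the contrasts between tissues, where it gave 698 probes for lung and 3888 for forestomach and 0 called, which changed no call. Liver deviations correlated with those of the same mouse's other tissues at -0.206 to 0.197 (median 0.0485, 20 pairs). D0 and D1 share no mouse, and no pairing within liver exists.

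List medians moved by more than the SD between D0 mice as follows. With median centring they were 0.03 for AhR targets, 0.16 for the AhR complex, 0.12 for Nrf2 targets, 0.14 for p53 targets, 0.14 for DNA repair, -0.02 for the glucocorticoid list and 0.11 for acute phase, against 0.0881 over all probes. The AhR target median was -0.12 with processed signals and -0.11 to -0.0028 when 1 mouse was left out, and DNA repair ranged from -0.01 to 0.04. Within slide 1 medians were 0.05 for AhR targets, -0.54 for CAR and PXR targets, -0.03 for DNA repair, -0.04 for the glucocorticoid list, 0.15 for acute phase, -0.13 for MHC class II, -0.22 for the pericentral zone and -0.29 for conjugation enzymes. Within slide 2 the unfolded protein response was at -0.16. Within slide 3 medians were -0.22 for AhR targets, -0.02 for the glucocorticoid and interferon lists, -0.27 for acute phase and 0.15 for oxidative phosphorylation.

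Genes with changes near 0 turned direction under some settings. With median centring the median of all probes was itself at 0.0881. With median centring Cyp1a2 was at 0.04, Tiparp at 0.09, Nqo1 at 0.01, Mdm2 at 0.11, F2 at 0.01, Ms4a1 at 0.11, Cd3e at 0.08, Hbb-b2 at 0.10 and Ctrb1 at 0.0033. Without the slide term Cyp1a2 was at 0.01 and Hbb-b2 at 0.05. Without slide 3 Tiparp was at 0.03, Mdm2 at 0.09, Gdf15 at -0.0017, Marco at 0.19, Rgs5 at -0.07, Stab2 at -0.09, Cd3e at 0.0028, Camp at 0.07, Hbb-b2 at 0.03, Cfd at -0.02 and Amy2a5 at -0.23. With processed signals Mdm2 was at 0.02, Rgs5 at -0.01, Ms4a1 at 0.44, Hba-a1 at -0.01 and Gpm6a at -0.24. With normexp Ms4a1 was at 0.04 and Gpm6a at -0.02, and with deposited ratios Ms4a1 was at 0.0028. With the 10 D0 and D1 arrays alone Mdm2 was at 0.0038, Camp at 0.0029 and Amy2a5 at -0.0036. When 1 mouse was left out, the change ranged from -0.09 to 0.06 for Tiparp, -0.10 to 0.03 for Mdm2, -0.03 to 0.60 for Gdf15, -0.07 to 0.36 for Rgs5, -0.10 to 0.08 for Ms4a1, -0.10 to 0.03 for Cd3e, -0.10 to 0.04 for Camp, -0.09 to 0.0027 for Hbb-b2, -0.13 to 0.17 for Amy2a5 and -0.14 to 0.11 for Gpm6a. No other named gene turned direction under these settings.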
